A study of Mus musculus with 36 samples.

Results

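Bile duct ligation is a surgery that ties off the common bile duct, so that bile cannot leave the liver. Livers taken 28 days after ligation, the group labelled BDL28 and described by its submitters as chronic cholestasis, were compared with livers after sham surgery, the group labelled SHAM. Both groups were C57BL/6 mice with no transgene, deletion or drug named in the labels, which give no age and, for SHAM, no day. The comparison took the 4 libraries of each group, 8 of the 36 libraries of the series, and every gene with a normalized count of at least 10 in at least 4 of these 8. That left 10974 of the 29546 genes in the table. The remaining groups of 4 were ligation at day 7 (BDL7), a diet with 3,5-diethoxycarbonyl-1,4-dihydrocollidine (DDC) at 7 or 28 days, cyclosporin A at 7 or 28 days, and the control diet and vehicle. Expression was measured in whole liver as 3′ tags with molecular identifiers, and each value is a count of tags divided by the size factor of its library. The design text gives n = 4 per group, but the labels tie no library to an animal, so the p-values measure the spread between these libraries.

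Bile acids are made from cholesterol in hepatocytes by a cytochrome P450 cascade, exported across the canalicular membrane into bile, and taken up again from sinusoidal blood. When bile outflow is blocked they accumulate in the liver, where the bile acid receptor FXR represses their synthesis and uptake and raises their export, and sulfotransferases and other conjugating enzymes make them more soluble. Chronic obstruction is also known for proliferation of bile ducts, recruitment of macrophages and neutrophils, and scar formation by stellate cells and portal fibroblasts.

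The 8 libraries held between 2278745 and 2908075 tags each, and their values came out as whole multiples of the value of 1 tag. All 8 carried transcripts of the Y chromosome, such as Ddx3y with 511 to 629 in BDL28 libraries and 448 to 537 in SHAM libraries, and Xist was between 0 and 1.19. Alb, the albumin gene of hepatocytes, was abundant in every library, at 13236 to 18163 in BDL28 and 20423 to 24839 in SHAM libraries. In 1 case a library lay nearer to another group than to its own. The library labelled BDL28 replicate 1 lay nearer to a library of the DDC diet at day 28 than to any other library of the series, at a mean absolute log2 distance of 0.290, whereas its distances to the other 3 BDL28 libraries were 0.443 to 0.547. Among 485 genes that separated the other 3 BDL28 libraries from the 4 DDC day 28 libraries, chosen without it, it lay nearer to the DDC libraries in 413 (85.2%). The count made in turn for each other BDL28 library gave 12.7% to 25.4% of 118 to 142 genes. For each DDC day 28 library, 15.6% to 22.8% of 128 to 151 genes lay nearer to BDL28. In these counts the library labelled replicate 1 was among those that had to separate. Genes in which it resembled DDC were thus left out, and the shares are not a like baseline for 85.2%. The library labelled replicate 1 also lay nearer to BDL7 in 818 of 1355 genes (60.4%) in which the other BDL28 libraries differed from BDL7. That share was 6.32% to 24.1% of 740 to 1082 genes for the others. Those genes were chosen with the library labelled replicate 1, so these shares are no like baseline for 60.4% either. Krt7 went with neither BDL28 nor DDC, at 48.2 in it and 9.04 to 22.9 in DDC day 28 libraries. Why it stood apart was not tested. Examples of genes in which it lay nearer to DDC are Cyp2b10 and Cyp1a2, which encode drug-metabolizing enzymes. Cyp2b10 had 531 in the library labelled replicate 1 and 589.6 to 1222 in DDC day 28 libraries, but 14.7, 30.6 and 11.8 in the other BDL28 libraries. Cyp1a2 had 2185 in the library labelled replicate 1 and 2677 to 3426 in DDC day 28 libraries, but 60.6, 161 and 303 in the other BDL28 libraries. It was no copy of a deposited DDC library, since the closest one still differed from it by a mean chi-square of 3.34 per gene. Pairs of SHAM libraries differed by 2.38 to 3.78 and pairs of DDC day 28 libraries by 2.49 to 7.43. From the other BDL28 libraries, the library labelled replicate 1 differed by 11.3 to 19.6. Its log2 distance of 0.290 also lay within the range between DDC day 28 libraries, 0.254 to 0.347. The bar plot of distances shows the position of each BDL28 library. The library was kept under its label, and list counts against SHAM that differ without it are given both ways below. A gene whose difference is given with all 4 libraries alone kept its direction and its call without it, and moved by less than 1.5-fold. Where 4 values of a group are listed they run from replicate 1 to replicate 4, so that the first BDL28 value is always the doubted library.

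**Figure D1:**
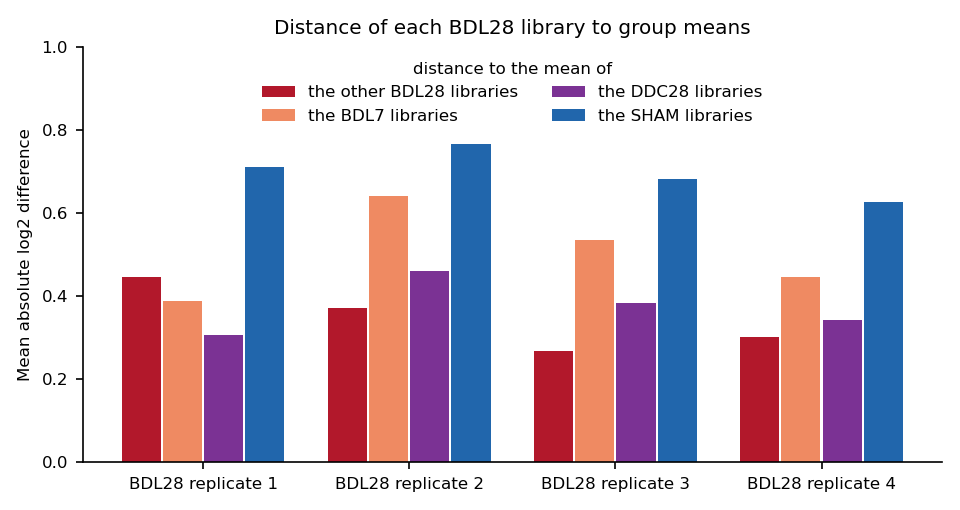
Bars give the mean absolute difference in log2(normalized count + 1) over 10974 genes (y axis) between each BDL28 library (x axis) and the mean of the other 3 BDL28 libraries, of BDL7, of DDC at day 28 and of SHAM. The library labelled BDL28 replicate 1 is the one that lies nearer to DDC at day 28 (0.307) and to BDL7 (0.388) than to the other BDL28 libraries (0.447), and all 4 lie farthest from SHAM.

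At day 28 about as many genes were higher as lower than in sham livers. Of the 10974 genes, 2176 were higher (19.8%) and 2230 lower (20.3%) at a limma adjusted p under 0.05, and 932 (8.49%) and 779 (7.1%) of these by more than 1 on the log2 scale. Without the library labelled replicate 1 the counts were 2391 higher (21.8%) and 2418 lower (22%), and 4125 genes were called in the same direction in both fits. In 4317 genes (39.3%) the 4 BDL28 libraries did not overlap the 4 SHAM libraries. The median difference over all genes was 0.0060, but it was 0.26 when libraries were scaled to equal totals, with larger totals of normalized counts in the 4 SHAM libraries. Under that scaling 3801 genes were higher and 1284 lower, so that 74.7% of calls were higher, against 49.4% here. The call of a small difference may therefore depend on the scaling, and quantile normalization moved the medians of some lists by more, as given below. A gene list below is described by the members that passed the filter. A gene detected in 1 group alone can pass it through that group, so list counts are descriptions and carry no test. Against SHAM, each count is to be read beside the 19.8% higher and 20.3% lower of all genes. Counts near these shares say little about a list. In bulk tissue, fewer cells of a type and less RNA per cell cannot be told apart.

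**Figure D2:**
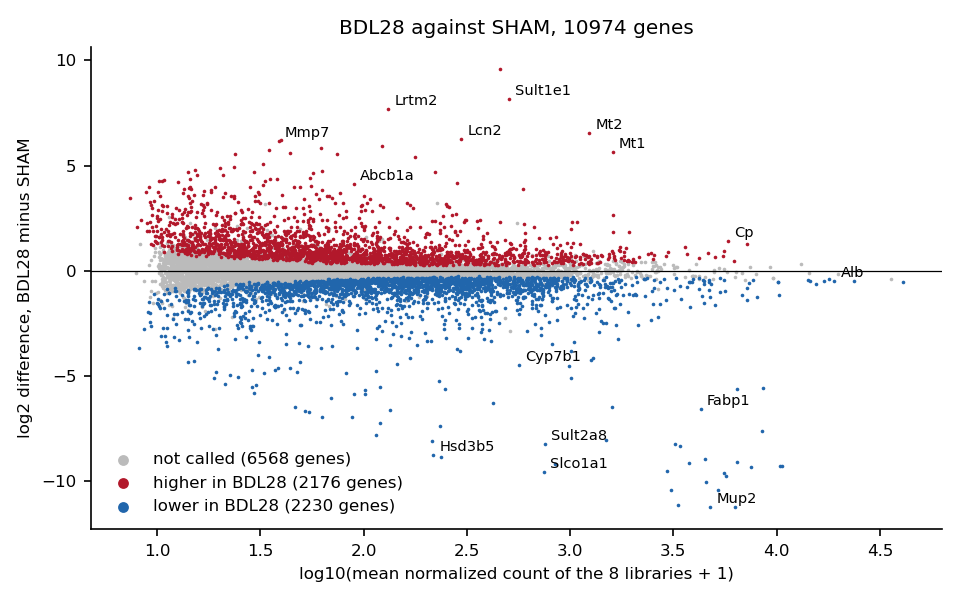
Each point is a gene, with log10(mean normalized count of the 8 libraries + 1) on the x axis and the log2 difference, BDL28 minus SHAM, on the y axis. Red points are the 2176 genes called higher, blue points the 2230 called lower and grey points those not called; labelled genes are described in the text, and the points at the lower right include the major urinary proteins.

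Bile acid synthesis was lower at several steps while its first enzyme was higher. Cyp7a1, the rate-limiting enzyme of the classical pathway, had 812, 345, 482 and 652 in the BDL28 libraries, against 70.2, 137, 159.9 and 200.4 in the SHAM libraries. No BDL28 library overlapped a SHAM library, and the log2 difference was 2.03 ± 0.36 (SE; limma adjusted p = 0.0026) and 1.84 without the library labelled replicate 1. Cyp8b1, which adds the 12-hydroxyl group of cholic acid, had 51.2, 82.7, 122 and 105 in the BDL28 libraries, against 563, 709.9, 695 and 629.7 in the SHAM libraries. Cyp7b1, the oxysterol hydroxylase of the alternative pathway, had 53.1, 45.0, 65.0 and 32.2 in the BDL28 libraries, against 1256, 917, 890.0 and 1248 in the SHAM libraries. Both fell in every BDL28 library, with log2 differences of -2.90 for Cyp8b1 (limma adjusted p = 6.28e-06, -2.65 without the library labelled replicate 1) and -4.46 for Cyp7b1 (limma adjusted p = 7.17e-08, -4.52 without it). Scp2, whose peroxisomal product shortens the side chain, and Hsd3b7, an early sterol-ring enzyme, fell by 1.69 and 1.63 on the log2 scale. Cyp27a1, which starts the alternative pathway, had 615, 998, 1074 and 967 in the BDL28 libraries, against 1149, 1151, 1192 and 1163 in the SHAM libraries. Its difference of -0.38 was not called (limma adjusted p = 0.0738), and it passed only without BDL28 replicate 3 (-0.47, limma adjusted p = 0.0494). Of the 15 measured genes of bile acid synthesis, 3 were called higher and 9 lower, against 19.8% and 20.3% of all genes, with a median difference of -1.05 (4 and 9, median -0.99, without the library labelled replicate 1).

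Uptake carriers of the sinusoidal membrane were lower. Slco1a1, an organic anion transporter of male mouse liver, had 0, 0.919, 2.79 and 1.07 in the BDL28 libraries, against 1457, 1446, 1591 and 1443 in the SHAM libraries. It was close to the detection limit in all BDL28 libraries, a log2 difference of -9.56 ± 0.32 (SE; limma adjusted p = 1.18e-08) and -9.23 without the library labelled replicate 1. Slc22a7, a carrier of organic anions, fell by 4.72 (limma adjusted p = 9.24e-06). Slco1a4, an anion transporter of the same family as Slco1a1, went the other way, with 446, 860.0, 843 and 905 in the BDL28 libraries, against 95.0, 153, 185 and 168 in the SHAM libraries. It rose by 2.33 (limma adjusted p = 0.000112, 2.57 without the library labelled replicate 1). Slc10a1 (NTCP), the main sodium-dependent bile acid carrier, had 287, 725, 766 and 689 in the BDL28 libraries, against 845, 864, 989 and 829 in the SHAM libraries. Only the library labelled replicate 1 stood far below the others: the difference was -0.61 and not called with it (limma adjusted p = 0.111), and -0.28 and called without it (limma adjusted p = 0.0304). Of the 8 measured uptake carriers, 1 was called higher and 6 lower (7 lower without that library), with a median of -2.13.

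Among exporters, the canalicular bile salt pump was lower and the basolateral pumps were higher. Abcb11 (BSEP), which moves bile salts into the canaliculus, had 381, 176, 270.2 and 416 in the BDL28 libraries, against 1106, 875, 1006 and 998 in the SHAM libraries. The groups did not overlap and the log2 difference was -1.75 ± 0.23 (SE; limma adjusted p = 0.000249) and -1.87 without the library labelled replicate 1. Abcb1a, a multidrug pump of the same membrane, had 170.2, 185, 145 and 171 in the BDL28 libraries, against 9.63, 12.4, 7.36 and 5.93 in the SHAM libraries. Its rise of 4.14 ± 0.22 (SE; limma adjusted p = 1.07e-07) was nearly the same in all 4 BDL28 libraries and was 4.13 without the library labelled replicate 1. Abcg5, a subunit of the sterol exporter, rose by 1.19 (limma adjusted p = 0.00121) and Abcc2 (MRP2), which exports conjugates, by 0.43 (limma adjusted p = 0.0143), whereas Abcg2, a pump of sulfate conjugates, fell by 1.06 (limma adjusted p = 4.37e-05). At the basolateral side, Abcc4 (MRP4), which returns bile acids to blood, had 206, 84.5, 52.0 and 45.0 in the BDL28 libraries, against 13.8, 13.7, 17.9 and 14.2 in the SHAM libraries. Slc51b, the beta subunit of the OST bile acid transporter, had 21.6, 57.9, 36.2 and 63.2 in the BDL28 libraries, against 5.50, 9.93, 4.21 and 7.12 in the SHAM libraries. Abcc4 rose by 2.36 and Slc51b by 2.51 (limma adjusted p = 0.00101 and 0.000253; 1.91 and 2.81 without the library labelled replicate 1, which was the highest of the BDL28 libraries for Abcc4 and the lowest for Slc51b). Abcc3 (MRP3), of the same side, rose by 0.87 (limma adjusted p = 0.000455) and Abcc6 fell by 0.93 (limma adjusted p = 0.00101). In all, 4 of 6 measured basolateral exporters were called higher and 1 lower, and 4 of 11 canalicular exporters higher and 3 lower, with the same counts without the library labelled replicate 1.

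The bile acid receptor itself changed little. Nr1h4 (FXR) had 201, 192, 229 and 215 in the BDL28 libraries, against 255, 283, 241 and 244 in the SHAM libraries. Its fall of 0.29 just passed the threshold (limma adjusted p = 0.0472) and was lost without any 1 of the libraries other than BDL28 replicate 3 (limma adjusted p = 0.0613 to 0.138). Nr0b2 (SHP), the repressor induced by FXR in the feedback loop, had 20.7, 23.9, 38.1 and 33.2 in the BDL28 libraries, against 63.3, 129, 46.3 and 46.2 in the SHAM libraries. It was lower in all BDL28 libraries, by -1.17 ± 0.32 (SE; limma adjusted p = 0.0136; -1.03 without the library labelled replicate 1). Nr1h3, the oxysterol receptor LXR alpha, fell by 0.87 (limma adjusted p = 4.34e-05) and Nr1i3, the xenobiotic receptor CAR, rose by 0.78 (limma adjusted p = 0.00566). Of the 12 receptors and partners measured, 2 were called higher and 4 lower (2 and 3 without the library labelled replicate 1), against 19.8% and 20.3% of all genes.

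**Figure D3:**
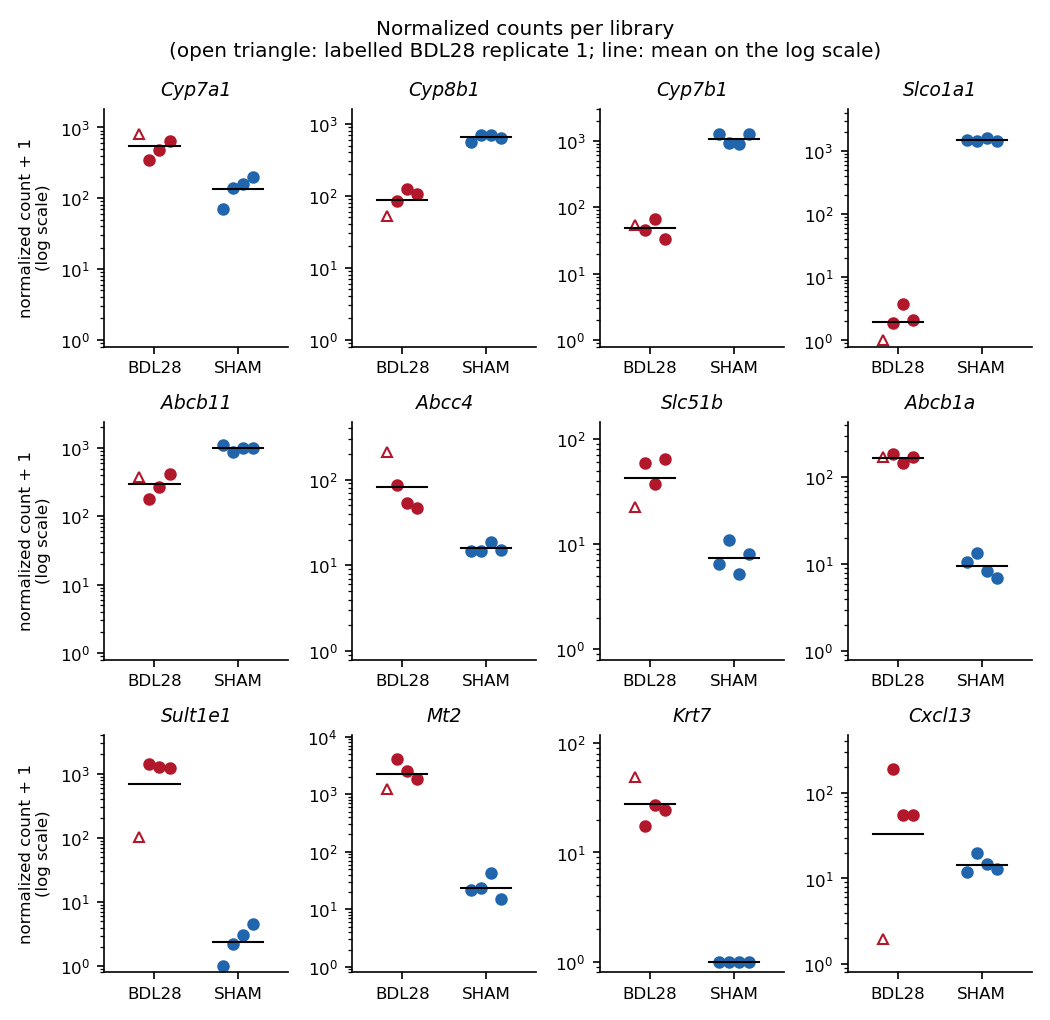
Normalized count + 1 on a log scale (y axis) in each BDL28 and SHAM library (x axis) for 12 genes; filled points are libraries, the open triangle is the library labelled BDL28 replicate 1 and the line is the mean on the log scale. The groups separate for every gene shown except Cxcl13, for which the triangle lies below all SHAM libraries, and the triangle also stands apart from the other BDL28 libraries for Sult1e1.

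Conjugating enzymes moved in both directions and by large amounts. Sult1e1, the estrogen sulfotransferase, had 100.3, 1409, 1285 and 1235 in the BDL28 libraries, against 0, 1.24, 2.10 and 3.56 in the SHAM libraries. The rise of 8.18 ± 0.95 (SE; limma adjusted p = 0.000552) and 9.11 without the library labelled replicate 1 was carried by all 4 BDL28 libraries, but the library labelled replicate 1 lay far below the others. Sult2a2, a bile acid and steroid sulfotransferase, had 16.7, 107, 133 and 228 in the BDL28 libraries, against 1.38, 1.24, 0 and 0 in the SHAM libraries, a BDL28 to SHAM ratio of 198 (exact 95% Poisson interval 54.5 to 1640.0) that rests on 2 tags in SHAM. Such intervals cover counting error in the pooled tags of a group, not the spread between libraries. The fitted log2 difference of Sult2a2, which depends on the pseudocount at so few tags, was 5.85 with and 6.62 without the library labelled replicate 1. Sult2a1, a second hydroxysteroid sulfotransferase that missed the filter because only 3 libraries passed 10, had 3.94, 132, 172 and 86.8 in the BDL28 libraries, against 0 in all SHAM libraries. Sult2a8, a further member of that subfamily, was almost lost, with 2.95, 1.84, 6.50 and 6.43 in the BDL28 libraries, against 1566, 1269.7, 1572 and 1612 in the SHAM libraries. It fell by 8.23 (limma adjusted p = 1.95e-08, -8.11 without the library labelled replicate 1). Sult5a1 fell by 4.62 and Sult1a1, a phenol sulfotransferase, rose by 1.62 (limma adjusted p = 2.44e-07 and 5.1e-05). The 9 measured sulfotransferases split evenly, 4 higher and 4 lower, with and without that library. The Sult2a genes have near-identical copies, so tags may have been shared between them.

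Glutathione transferases, which conjugate electrophiles, were more often lower: 5 of 20 were called higher and 11 lower (4 and 11 without the library labelled replicate 1), with a median of -0.39. Gstp1 had 1559, 708, 775 and 882 in the BDL28 libraries, against 4494, 4138, 4017 and 4672 in the SHAM libraries, a fall of 2.21, and its near-identical neighbour Gstp2 fell by 2.49 (limma adjusted p = 1.7e-05 and 4.73e-05). Gsta2 had 445, 525, 472 and 656 in the BDL28 libraries, against 109, 93.1, 87.3 and 97.2 in the SHAM libraries, a rise of 2.42 (limma adjusted p = 1.86e-07). Its close relative Gsta1 had 895, 131, 70.6 and 256 in the BDL28 libraries, against 27.5, 22.3, 0 and 0 in the SHAM libraries. The Gsta1 rise of 5.41 (limma adjusted p = 0.0265) rested on a wide spread and was lost without BDL28 replicate 1, 2 or 4 or SHAM replicate 3 or 4 (limma adjusted p = 0.0535 to 0.0641); it was 4.73 without BDL28 replicate 1, 4.63 without SHAM replicate 3 or 4, and 6.24 or 6.14 without SHAM replicate 1 or 2.

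Targets of the oxidative-stress factor NRF2 did not move as one, with 7 of 17 called higher and 5 lower (6 and 5 without the library labelled replicate 1). Nqo1, a quinone reductase, had 115, 135, 117 and 145 in the BDL28 libraries, against 9.63, 14.9, 12.6 and 7.12 in the SHAM libraries. It was tightly grouped in BDL28 and rose by 3.46 ± 0.22 (SE; limma adjusted p = 6.86e-07) and 3.51 without the library labelled replicate 1. Hmox1, which degrades heme, rose by 1.63 and Htatip2, an oxidoreductase, by 1.60, whereas Me1, the malic enzyme that supplies NADPH, fell by 2.35 (limma adjusted p = 1.61e-05, 5.08e-06 and 1.27e-05). Of the 10 measured targets of the xenobiotic receptors CAR and PXR, 4 were called higher and 0 lower, and 6 and 1 without the library labelled replicate 1. They include Por, the electron donor of cytochromes P450, with 986, 1994, 1961 and 1568 in the BDL28 libraries, against 413, 391, 371 and 409 in the SHAM libraries, a rise of 1.98 (limma adjusted p = 2.04e-05, 2.21 without the library labelled replicate 1).

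The metallothioneins, small proteins that bind zinc and copper, were among the largest increases. Mt2 had 1235, 4109, 2552 and 1857 in the BDL28 libraries, against 20.6, 22.3, 41.0 and 14.2 in the SHAM libraries. Mt1 had 1936, 4569, 3314 and 2742 in the BDL28 libraries, against 53.7, 42.2, 119.9 and 45.1 in the SHAM libraries. The lowest BDL28 library exceeded the highest SHAM library for both, with log2 differences of 6.54 ± 0.42 for Mt2 and 5.64 ± 0.37 for Mt1 (SE; limma adjusted p = 1.59e-05 and 1.5e-05; 6.82 and 5.85 without the library labelled replicate 1, the lowest of the 4). Among 24 iron and heme genes, 7 were called higher and 5 lower (9 and 6 without that library). With all 4 libraries these are 29.2% and 20.8%, against 19.8% and 20.3% of all genes. Hamp, the iron hormone hepcidin, had 1416, 3568, 2739 and 2412 in the BDL28 libraries, against 755, 594, 559.7 and 798 in the SHAM libraries, a rise of 1.84 (limma adjusted p = 0.000291, 2.10 without the library labelled replicate 1). Id1, a target of the BMP signal that induces hepcidin, rose by 2.11 (limma adjusted p = 0.000161). Alas2, the heme synthesis enzyme of red cell precursors, had 31.5, 10.1, 21.4 and 25.7 in the BDL28 libraries, against 257, 262, 231 and 224 in the SHAM libraries and fell by 3.50 (limma adjusted p = 5.17e-06).

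The male pattern of liver expression, which in mice depends on pulsed growth hormone, was nearly lost. Major urinary proteins, pheromone carriers secreted by male mouse liver, summed to 407 to 998 normalized counts in the BDL28 libraries, against 174000.0 to 238620.0 in the SHAM libraries. All 22 measured members were called lower, with a median of -9.27 (-8.78 without the library labelled replicate 1). Mup3, for example, had 18.7, 10.1, 37.1 and 35.4 in the BDL28 libraries, against 15456, 14208, 15337 and 14671 in the SHAM libraries, a difference of -9.31 (limma adjusted p = 7.45e-07). Mup6 had 0 in all BDL28 libraries, against 535, 362, 439.8 and 547 in the SHAM libraries, which makes it at least 643-fold lower when 3 tags over the group are taken as the floor. The copies are so alike that tags cannot be assigned to 1 of them with certainty, and the individual values of the lowest members moved with single libraries. Mup2, Mup10, Mup13, Mup19, Mup1, Mup8, Mup17, Mup16, Mup12 and Mup11 ranged from -11.23 to -9.27. Of these, Mup2, Mup13, Mup19, Mup1 and Mup16 moved by more than 1.5-fold without the library labelled replicate 1, to -10.57, -10.40, -9.72, -9.43 and -8.63. Without BDL28 replicate 2, 3 or 4, Mup13 lay between -12.13 and -10.40 and Mup19 between -11.19 and -9.72, and without BDL28 replicate 3 or 4 Mup2 was -12.14 or -10.57. All kept their call. Mup21 and Mup4 fell by 6.61 and 8.08 (limma adjusted p = 5.22e-09 and 1.95e-08).

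Beyond this family, 17 of 18 male-biased genes were lower (18 without the library labelled replicate 1), with a median of -4.29. Hsd3b5, a steroid dehydrogenase of male liver, had 0 in all BDL28 libraries, against 487, 325, 462 and 449 in the SHAM libraries, and was at least 591-fold lower. Elovl3, a fatty acid elongase, had 0, 1.84, 3.71 and 4.29 in the BDL28 libraries, against 1518, 1596, 1764 and 1889 in the SHAM libraries. It fell by 9.18 (limma adjusted p = 2.81e-06). Nudt7, a peroxisomal hydrolase of coenzyme A, had 122, 135, 141 and 161 in the BDL28 libraries, against 2634, 2254, 2319 and 2537 in the SHAM libraries, a fall of 4.12 ± 0.11 (SE; limma adjusted p = 4.24e-10). Cyp4a12a, a male-specific fatty acid hydroxylase, had 0, 123, 159 and 78.2 in the BDL28 libraries, against 2599, 3592, 2753 and 3504 in the SHAM libraries. The difference was -6.44 (limma adjusted p = 0.0235), but -4.73 without the library labelled replicate 1 (limma adjusted p = 2.91e-06), -7.05 or -7.17 without BDL28 replicate 2 or 3, and not called without SHAM replicate 2 or 4 (limma adjusted p = 0.054 and 0.0563).

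Female-biased genes moved the other way, 12 of 16 higher and 2 lower with and without the library labelled replicate 1, and a median of 2.58. Cux2, a repressor of male-biased genes in female mouse liver, had 34.4, 68.9, 66.9 and 76.1 in the BDL28 libraries, against 0, 3.72, 1.05 and 0 in the SHAM libraries. The groups were far apart, by 5.09 ± 0.51 (SE; limma adjusted p = 1.63e-05) and 5.34 without the library labelled replicate 1. Slc22a27, an organic anion transporter of female liver, had 44.3, 36.8, 44.6 and 57.9 in the BDL28 libraries, against 0 in all SHAM libraries, and was at least 50.4-fold higher. Slc22a26, of the same cluster, had 49.2, 80.9, 86.4 and 124 in the BDL28 libraries, against 2.75, 0, 1.05 and 0 in the SHAM libraries, a ratio of 93.5 (exact 95% Poisson interval 31.7 to 456) from 3 tags in SHAM. Fmo2, a flavin monooxygenase, rose by 3.07 and Cyp2c40, a cytochrome P450, fell by 2.27 (limma adjusted p = 2.8e-06 and 3.81e-06). Cyp2b9, a female-biased cytochrome P450 that missed the filter, had 67.9, 8.27, 13.001 and 21.4 in the BDL28 libraries, against 0, 0, 1.05 and 0 in the SHAM libraries. Within the growth hormone axis, 1 of 16 genes was higher and 5 lower. The growth hormone receptor Ghr had 422, 324, 409.5 and 518 in the BDL28 libraries, against 1642, 1617, 1812 and 1649.5 in the SHAM libraries and fell by 2.02 (limma adjusted p = 8.92e-07). Igfals, the binding subunit of circulating IGF1, fell by 2.20, Igfbp2 by 0.95 and the signal transducer Stat5b by 0.72 (limma adjusted p = 4.13e-05, 0.000141 and 0.000763).

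Bile duct genes were mostly higher at day 28. Krt7, a keratin of bile duct epithelium, had 48.2, 16.5, 26.0 and 23.6 in the BDL28 libraries, against 0 in all SHAM libraries, and was at least 31.5-fold higher. Krt19, its partner, had 56.1, 13.8, 34.4 and 19.3 in the BDL28 libraries, against 1.38, 2.48, 1.05 and 3.56 in the SHAM libraries. The rise was 3.23 ± 0.47 (SE; limma adjusted p = 0.000242) and 2.89 without the library labelled replicate 1. Spp1, the secreted matrix protein osteopontin, had 2118, 629, 697 and 599 in the BDL28 libraries, against 180.3, 176, 227 and 162 in the SHAM libraries. Its rise was 2.22 (limma adjusted p = 0.0029), and 1.79 without the library labelled replicate 1, which was the highest of the 4. Cldn4, a tight junction protein, had a ratio of 43.4 (exact 95% Poisson interval 14.6 to 213) from 3 tags in SHAM and Ehf, an epithelial transcription factor, rose by 3.48 (limma adjusted p = 0.000139). Sox9, which marks ducts and reactive hepatocytes, had 358, 214, 398 and 401 in the BDL28 libraries, against 253, 295, 190.4 and 139 in the SHAM libraries. It was not called (0.66, limma adjusted p = 0.0725), and passed only without BDL28 replicate 2 or SHAM replicate 2 (0.87 and 0.82, limma adjusted p = 0.0146 and 0.0354). Of the 18 measured markers, 12 were called higher and 0 lower, with a median of 2.26. Without the library labelled replicate 1 these were 12, 2 and 1.84. Summed, the markers stood at 2494 to 5978 in BDL28 and 1696 to 1944 in SHAM libraries.

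Other epithelial and fetal genes rose with them. Of 8 oncofetal and progenitor genes, 5 were called higher and 2 lower, among them Cd24a, a surface glycoprotein of progenitors, with 208, 83.6, 104 and 91.1 in the BDL28 libraries, against 8.26, 14.9, 7.36 and 5.93 in the SHAM libraries, and Scd2, a desaturase of fetal liver. Their differences were 3.57 and 2.84 (limma adjusted p = 9.56e-06 and 2.25e-05). Igf2bp3, a fetal RNA-binding protein at 0 in all SHAM libraries, was at least 20.5-fold higher. Tubb2b, a beta tubulin, rose by 4.76 and Krt18, the hepatocyte keratin, by 1.64, whereas Hspb1, a small heat shock protein, fell by 2.71 (limma adjusted p = 2.81e-06, 4.22e-05 and 7.71e-06). Keratins, tubulins and Mallory body components together gave 7 higher and 3 lower of 16 (7 and 4 without the library labelled replicate 1). Defb1, an epithelial defensin, had 206, 68.0, 41.8 and 48.2 in the BDL28 libraries, against 11.01, 16.1, 26.3 and 11.9 in the SHAM libraries, and its rise of 2.17 was 1.68 without the library labelled replicate 1 (limma adjusted p = 0.00524 and 0.000669).

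Matrix genes were called about as often as all genes, and their counts depended on 1 library. Col1a1, a chain of type I collagen, had 396, 69.8, 163 and 125 in the BDL28 libraries, against 15.1, 16.1, 16.8 and 15.4 in the SHAM libraries. Col3a1, the chain of type III collagen, had 445, 41.3, 114 and 65.4 in the BDL28 libraries, against 30.3, 39.7, 42.1 and 30.8 in the SHAM libraries. Col1a1 was called with a rise of 3.20 (limma adjusted p = 0.000342; 2.75 without the library labelled replicate 1). Col3a1 was not (1.59, limma adjusted p = 0.0969); it passed without that library (0.92, limma adjusted p = 0.0246) or without BDL28 replicate 2 (2.05, limma adjusted p = 0.0404). For both genes the library labelled replicate 1 was the highest of the 4. Of 24 fibrillar and basement membrane matrix genes, 5 were called higher and 4 lower, with a median of 0.50. Without it the counts were 7 and 8 and the median 0.11, and a fit that took the spread from all 36 libraries gave 11 and 5 (24.4% and 24.9% of all genes in that fit). Nid1, a basement membrane linker, had 551, 423, 426 and 414 in the BDL28 libraries, against 61.9, 45.9, 48.4 and 53.4 in the SHAM libraries. It rose by 3.09 ± 0.14 (SE; limma adjusted p = 2.75e-08) and 2.99 without the library labelled replicate 1. Lama5, a laminin chain, rose by 3.04 and Ecm1, a secreted matrix protein of hepatocytes and stellate cells, fell by 1.35 (limma adjusted p = 6.32e-05 and 0.00117).

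Genes that remodel matrix were more often called higher than lower, 10 of 15 higher and 3 lower (9 and 3 without the library labelled replicate 1), with a median of 1.01. Mmp7, a metalloproteinase of injured ducts, had 114, 76.3, 64.1 and 47.2 in the BDL28 libraries, against 0 in all SHAM libraries, and was at least 84.1-fold higher. Mmp14, a membrane metalloproteinase, rose by 1.82 and Plat, the tissue plasminogen activator, by 3.26 (limma adjusted p = 9.72e-07 and 0.000112). Timp1, an inhibitor of metalloproteinases that missed the filter, had 30.5, 3.68, 12.1 and 8.57 in the BDL28 libraries, against 1.38, 0, 0 and 0 in the SHAM libraries. Of 19 markers of stellate cells and portal fibroblasts, 7 were higher and 3 lower, with a median of 0.87; without the library labelled replicate 1 these were 7, 7 and 0.44. Acta2, the smooth muscle actin of activated stellate cells, had 27.5, 14.7, 13.001 and 10.7 in the BDL28 libraries, against 2.75, 7.45, 4.21 and 3.56 in the SHAM libraries, a rise of 1.65 (limma adjusted p = 0.00645, 1.39 without it). Tgfb2, a fibrogenic cytokine, rose by 2.98, S100a6, a calcium-binding protein of fibroblasts and ducts, by 3.54 and Ccn2, the connective tissue growth factor, by 2.09 (limma adjusted p = 1.59e-05, 6.94e-05 and 0.00129). Ecm1, described above, was among the members of this list called lower, and the lowest member stood at -2.61. The mean log2 difference of the list from SHAM was 1.72 in the library labelled replicate 1. In the other BDL28 libraries it was 0.043, -0.012 and -0.034.

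Macrophage genes were mostly higher. Of 15 monocyte and macrophage markers, 13 were called higher and 0 lower, with and without the library labelled replicate 1, and the median was 1.45. Their sum was 1987 to 4830.5 in BDL28 and 924 to 1214 in SHAM libraries. Chil3, a chitinase-like protein of alternatively activated macrophages, had 50.2, 79.9, 116 and 64.3 in the BDL28 libraries, against 0 in all SHAM libraries, at least 87.0-fold higher. Itgam, the integrin CD11b, rose by 2.75, the Fc receptor Fcgr3 by 1.67 and the protease Ctss by 1.45 (limma adjusted p = 1.11e-05, 6.57e-05 and 0.000168). Genes of lipid-associated macrophages gave 10 higher and 3 lower of 15. Gpnmb, a glycoprotein of such cells, had 548, 77.2, 99.4 and 238 in the BDL28 libraries, against 2.75, 1.24, 3.16 and 1.19 in the SHAM libraries, a rise of 5.92 (limma adjusted p = 3.31e-05, 5.38 without the library labelled replicate 1, the highest of the 4). Trem2, their lipid receptor, was at 0 in all SHAM libraries and at least 21.6-fold higher, and Cd63, a lysosomal membrane protein, and Lpl, lipoprotein lipase, rose by 4.16 and 2.34 (limma adjusted p = 1.43e-05 and 1.34e-06).

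Kupffer cell markers, which define the resident macrophages, did not move together: 7 of 18 were higher and 4 lower. Marco, a scavenger receptor, had 312, 434, 435 and 511 in the BDL28 libraries, against 11.01, 24.8, 10.5 and 17.8 in the SHAM libraries, a rise of 4.70 (limma adjusted p = 2.97e-07, 4.84 without the library labelled replicate 1). Clec4f, a lectin found on Kupffer cells alone in the liver, had 98.4, 36.8, 32.5 and 96.5 in the BDL28 libraries, against 164, 117, 118 and 111 in the SHAM libraries. Its fall of 1.10 (limma adjusted p = 0.0374) was lost without BDL28 replicate 2 or 3 or any 1 SHAM library (limma adjusted p = 0.06 to 0.102). C6, a complement component, fell by 1.93 (limma adjusted p = 2.85e-05). The neutrophil proteins S100a8 and S100a9 rose by 3.11 and 2.69 (limma adjusted p = 1.19e-05 and 3.34e-05), and were the only 2 of 14 neutrophil markers to pass the filter. None of 19 T and NK cell markers passed it. Ighm, the heavy chain of IgM, had 4.92, 0, 0 and 5.36 in the BDL28 libraries, against 34.4, 43.4, 48.4 and 13.04 in the SHAM libraries, and Derl3, counted among the plasma cell markers, fell likewise. Their differences were -3.71 and -3.27 (limma adjusted p = 0.00168 and 0.00169). Of 5 measured B and plasma cell markers, 3 were lower and 0 higher. The list median was -0.65, and the highest member stood at 1.32 and was not called.

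Sinusoidal endothelial markers were lower where they were called, 0 higher and 9 lower of 16 (11 lower without the library labelled replicate 1), with a median of -0.61. Dnase1l3, a nuclease of these cells, had 31.5, 16.5, 20.4 and 28.9 in the BDL28 libraries, against 113, 119, 92.6 and 106 in the SHAM libraries. It fell by 2.14 ± 0.21 (SE; limma adjusted p = 1.43e-05; -2.27 without that library). Ehd3, a trafficking protein, fell by 2.23, the growth factor receptor Kdr by 1.25 and Oit3 by 1.17 (limma adjusted p = 0.000104, 0.000455 and 8.17e-05). Of 8 vascular and lymphatic endothelial markers, 3 were higher and 1 lower (3 and 2 without that library). They include Pdpn, which marks lymphatic vessels and also ducts and fibroblasts, with 29.5, 21.1, 26.9 and 26.8 in the BDL28 libraries, against 0, 0, 2.10 and 2.37 in the SHAM libraries, and Esm1, a secreted endothelial proteoglycan. These rose by 3.90 and 2.48 (limma adjusted p = 9.16e-05 and 0.00181).

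**Figure D4:**
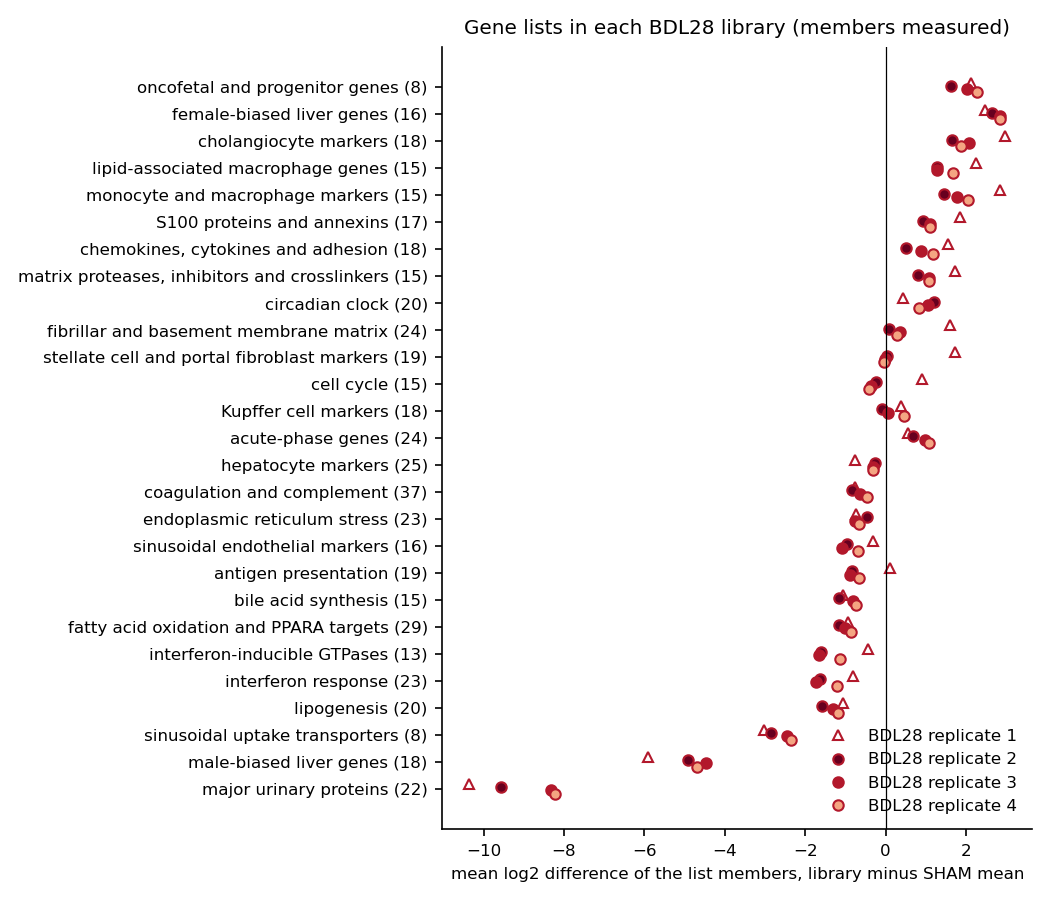
For each gene list (rows, with the number of members measured) the points give the mean log2 difference of its members between 1 BDL28 library and the SHAM mean (x axis); the open triangle is the library labelled BDL28 replicate 1. The 3 filled points lie close together for most lists, and the triangle lies to their right for matrix, stellate cell, cell cycle and interferon lists and to their left for male-biased genes and major urinary proteins.

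Interferon-stimulated genes were lower than in sham livers. Isg15, a ubiquitin-like antiviral protein, had 31.5, 12.9, 18.6 and 26.8 in the BDL28 libraries, against 72.9, 89.4, 70.5 and 84.2 in the SHAM libraries. Ifit1, which binds viral RNA, had 15.7, 9.19, 7.43 and 12.9 in the BDL28 libraries, against 60.5, 72.0, 53.7 and 49.8 in the SHAM libraries. No BDL28 library reached the lowest SHAM library for either gene, and the log2 differences were -1.84 and -2.32 (limma adjusted p = 0.000161 and 3.27e-05; -2.03 and -2.49 without the library labelled replicate 1). Irf9, a subunit of the factor that binds interferon response elements, fell by 1.33 and Bst2, which tethers viruses, by 1.69 (limma adjusted p = 5.57e-05 and 0.000153). None of 23 measured interferon response genes was called higher and 14 were lower (18 without that library), with a median of -1.48. Interferon-inducible GTPases, which attack intracellular pathogens, gave 8 lower of 13 (10 without it), such as Iigp1 with 1086, 504, 648 and 883 in the BDL28 libraries, against 2752, 2392, 2563 and 2403 in the SHAM libraries. Iigp1, Irgm1 and Ifi47 fell by 1.75, 1.24 and 1.28 (limma adjusted p = 6.22e-05, 0.000102 and 0.000139). Antigen presentation genes gave 8 lower and 0 higher of 19 (12 lower without it): B2m, the light chain of class I molecules, fell by 0.95, the class I gene H2-Q7, which has close copies, by 1.61 and the immunoproteasome subunit Psmb9 by 1.42 (limma adjusted p = 9.39e-05, 1.79e-05 and 0.000338).

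The promoters of Isg15 (chr4:156200769-156201068, minus strand) and Ifit1 (chr19:34640639-34640938, plus strand) are printed because they carry the core of the interferon-stimulated response element, searched as GAAANNGAAA on both strands. They are RefSeq sequences of build GRCm38.p6, matched by symbol because the authors used GRCm39, from 250 bases before to 50 bases after the start of the gene, 5′ to 3′ along the gene, with matches in capitals (overlapping matches run together).
Isg15: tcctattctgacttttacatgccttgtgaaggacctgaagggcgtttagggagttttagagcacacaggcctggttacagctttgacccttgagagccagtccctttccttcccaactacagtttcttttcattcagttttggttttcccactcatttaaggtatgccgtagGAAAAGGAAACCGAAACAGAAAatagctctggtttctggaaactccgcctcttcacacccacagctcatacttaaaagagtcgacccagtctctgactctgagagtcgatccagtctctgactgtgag
Ifit1: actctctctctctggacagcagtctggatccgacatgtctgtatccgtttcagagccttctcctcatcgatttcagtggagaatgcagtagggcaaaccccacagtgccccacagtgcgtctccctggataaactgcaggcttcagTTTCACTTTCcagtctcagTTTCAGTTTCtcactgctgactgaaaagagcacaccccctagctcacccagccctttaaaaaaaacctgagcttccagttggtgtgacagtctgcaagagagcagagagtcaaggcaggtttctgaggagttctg
Isg15 holds 3 matches, which begin 66.0 to 78.0 bases before the start, and Ifit1 holds 2, the first of them 104 bases before it. A match was present in 3.44% of 32851 promoters, in 3.08% of those of measured genes, and in 10 of the 16 measured interferon response genes that have a promoter in the table.

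Acute-phase genes and chemokines were higher in part. Lcn2, an iron-scavenging acute-phase protein, had 619, 356, 655 and 699.9 in the BDL28 libraries, against 4.13, 6.21, 15.8 and 3.56 in the SHAM libraries. Its rise of 6.27 ± 0.40 (SE; limma adjusted p = 3.69e-06) and 6.23 without the library labelled replicate 1 was far outside the spread of either group. Ceruloplasmin (Cp) rose by 1.41 and the lipopolysaccharide-binding protein Lbp by 1.32, whereas Saa4, a constitutive serum amyloid A, fell by 2.21 (limma adjusted p = 7.64e-06, 3.12e-05 and 1.2e-05). Saa1, a classical acute-phase protein, had 936, 267, 789 and 716 in the BDL28 libraries, against 1152, 928, 987 and 1188 in the SHAM libraries. It was not called (-0.79, limma adjusted p = 0.112), except without BDL28 replicate 2 (-0.39, limma adjusted p = 0.0345). Of 24 acute-phase genes, 12 were higher and 2 lower (15 and 2 without the library labelled replicate 1). Of 18 chemokines, cytokines and adhesion molecules, 11 were higher and 1 lower (10 and 3 without it). Ccl6, a macrophage chemokine, had 615, 389.6, 456 and 616 in the BDL28 libraries, against 127, 64.5, 90.5 and 111 in the SHAM libraries, a rise of 2.41 (limma adjusted p = 1.38e-05). Cxcl14, a chemokine of hepatocytes and stroma, rose by 3.54, and the adhesion molecules Icam1 and Vcam1 by 2.24 and 2.25 (limma adjusted p = 2.35e-05, 0.000115 and 0.000298). Calcium-binding S100 proteins and annexins gave 10 higher and 2 lower of 17, with S100a11 up by 3.05 (limma adjusted p = 7.39e-06).

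Hepatocyte gene lists held more genes called lower than higher. Glul, the glutamine synthetase of the innermost pericentral hepatocytes, had 352, 416, 501 and 601 in the BDL28 libraries, against 2266, 2271, 2308 and 2607 in the SHAM libraries. It fell by 2.36 ± 0.15 (SE; limma adjusted p = 6.97e-07; -2.23 without the library labelled replicate 1). Cyp2e1, a pericentral cytochrome P450, had 969, 1861, 2390.3 and 1486 in the BDL28 libraries, against 4226, 3804, 4167 and 4477 in the SHAM libraries, a fall of 1.39 (limma adjusted p = 0.000753). Rhbg, an ammonium transporter, and Rgn, an enzyme of ascorbate synthesis, fell by 2.64 and 2.90 (limma adjusted p = 4e-05 and 0.000953). Of 19 pericentral genes, 1 was called higher and 12 lower (2 and 11 without the library labelled replicate 1), with a median of -1.05. Periportal genes gave 5 higher and 9 lower of 19 (5 and 10 without that library), and their median of -0.35 became 0.15 with quantile normalization. Sds, a serine catabolic enzyme, rose by 1.24 and Pigr, the receptor that carries IgA into bile, fell by 1.29 (limma adjusted p = 0.000539 and 1.03e-05). Alb had 16738, 13236, 15660.4 and 18163 in the BDL28 libraries, against 24839, 21053, 22363 and 20423 in the SHAM libraries. Its fall of 0.48 (limma adjusted p = 0.0143) was lost without SHAM replicate 1 (-0.42, limma adjusted p = 0.0542). Ttr, transthyretin, Serpina1c, an antitrypsin, and Apoa2, an apolipoprotein, fell by 1.23, 1.62 and 1.16 (limma adjusted p = 9.6e-06, 9.39e-07 and 2.37e-05). Of 25 hepatocyte markers, 1 was higher and 10 lower (4 and 11 without the library labelled replicate 1), and their median of -0.30 became 0.25 with quantile normalization.

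Genes of fat metabolism were lower in both synthesis and oxidation. Of 20 lipogenic genes, 1 was higher and 16 lower, and of 29 genes of fatty acid oxidation and PPARA targets, 2 were higher and 21 lower, with medians of -1.41 and -1.05 (16 and 20 lower without the library labelled replicate 1). Acacb, the mitochondrial acetyl-CoA carboxylase, had 15.7, 4.59, 7.43 and 4.29 in the BDL28 libraries, against 173, 247, 285 and 174 in the SHAM libraries. It fell by 4.75 ± 0.34 (SE; limma adjusted p = 2.93e-06; -5.10 without that library). Mlxipl, the carbohydrate-responsive factor ChREBP, fell by 1.48 and the elongase Elovl5 by 1.58 (limma adjusted p = 3.69e-06 and 5.8e-05), and Fasn, the fatty acid synthase, by 0.56 (limma adjusted p = 0.0158), a call lost without SHAM replicate 2 (-0.47, limma adjusted p = 0.0563). Eci1, an isomerase of beta-oxidation, had 107, 107, 119 and 148 in the BDL28 libraries, against 272, 324, 314 and 314 in the SHAM libraries. It fell by 1.35, whereas the fatty acid receptor Cd36 rose by 2.35 (limma adjusted p = 1.15e-05 and 6.86e-07). Hepatic lipase (Lipc) and Apom, the carrier of sphingosine phosphate, fell by 2.60 and 1.87 (limma adjusted p = 0.000213 and 0.000144).

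Among genes of cholesterol synthesis, more were called higher than lower, with 11 of 24 genes higher and 3 lower (13 and 3 without the library labelled replicate 1). Hmgcs1, an early enzyme, had 3158, 2939, 4068 and 4369 in the BDL28 libraries, against 2004, 2259, 2433 and 2091 in the SHAM libraries. It rose by 0.71 and Sc5d, a desaturase, fell by 1.10 (limma adjusted p = 0.00232 and 0.0002). Genes of endoplasmic reticulum stress gave 1 higher and 16 lower of 23. The chaperone Hyou1 and the folding enzymes Pdia6 and Pdia3 fell by 1.63, 1.15 and 0.91 (limma adjusted p = 2.99e-06, 8.23e-06 and 4.6e-05). Of 37 coagulation and complement genes, 4 were higher and 24 lower (5 and 25 without that library). The complement components C9 and C8b and the lectin Mbl1 fell by 2.55, 1.79 and 2.06, and the anticoagulant protein S (Pros1) rose by 1.36 (limma adjusted p = 5.36e-06, 1.43e-05, 2.61e-05 and 1.28e-05). Amino acid catabolism was mixed, 7 higher and 12 lower of 33 (13 and 12 without the library labelled replicate 1). Otc, of the urea cycle, had 521, 198, 363 and 516 in the BDL28 libraries, against 1677, 1589, 1664 and 1722 in the SHAM libraries, a fall of 2.15 (limma adjusted p = 0.000207), and Haao and Kmo, of tryptophan breakdown, fell by 1.65 and 1.22 (limma adjusted p = 8.88e-06 and 3.8e-05). Glucose genes gave 6 higher and 9 lower of 26 (7 and 9 without that library): G6pc, the glucose-6-phosphatase, and Pygl, the glycogen phosphorylase, fell by 1.76 and 1.09, and the coactivator Ppargc1a rose by 1.42 (limma adjusted p = 0.000209, 7.31e-06 and 0.000461).

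Of the 20 clock genes measured, which run a daily transcriptional cycle, 10 were called higher and 2 lower (11 and 2 without the library labelled replicate 1). Ciart, a clock repressor, had 44.3, 96.5, 81.7 and 47.2 in the BDL28 libraries, against 0, 0, 1.05 and 0 in the SHAM libraries, a ratio of 228 (exact 95% Poisson interval 40.6 to 9036) from 1 tag in SHAM. Per3, a period gene, had 66.9, 71.7, 77.1 and 77.2 in the BDL28 libraries, against 2.75, 7.45, 8.42 and 3.56 in the SHAM libraries. Both were well separated from SHAM, and Per3 rose by 3.61 ± 0.31 (SE; limma adjusted p = 5.5e-06) and 3.65 without the library labelled replicate 1. Per1, Usp2, a clock-controlled deubiquitinase, and Wee1, a clock-controlled kinase, rose by 2.44, 2.82 and 2.02 (limma adjusted p = 4.92e-05, 3.27e-06 and 1.78e-05). The labels give no hour of tissue collection, so time of day and ligation cannot be told apart for this list. The same holds for any other gene described here that follows a daily cycle. The Ciart promoter (chr3:95882179-95882478, minus strand) is shown for its E-boxes, the CACGTG sites of clock activators, in capitals, from the same RefSeq table and over the same window.
Ciart: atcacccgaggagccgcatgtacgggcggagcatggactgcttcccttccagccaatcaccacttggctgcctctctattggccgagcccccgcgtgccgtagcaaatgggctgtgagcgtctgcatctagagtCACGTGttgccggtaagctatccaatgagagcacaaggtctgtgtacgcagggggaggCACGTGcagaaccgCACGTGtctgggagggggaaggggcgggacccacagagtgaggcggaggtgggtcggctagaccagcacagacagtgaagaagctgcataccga
It holds 3 matches, which begin 44.0 to 116 bases before the start. A match was present in 7.15% of all promoters, in 10.6% of those of measured genes, and in 4 of the 16 measured clock genes with a promoter in the table.

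On average, cell cycle genes stood above sham levels in 1 BDL28 library and below them in the other 3. Mki67, a proliferation marker that missed the filter, had 35.4, 2.76, 2.79 and 2.14 in the BDL28 libraries, against 5.50, 4.96, 5.26 and 3.56 in the SHAM libraries. Only the library labelled replicate 1 was above the SHAM libraries, and the other 3 were below all of them. The mean log2 difference of the measured list from SHAM was 0.92 in the library labelled replicate 1 and -0.25, -0.36 and -0.42 in the other BDL28 libraries. Of 15 measured cell cycle genes, 1 was called higher and 1 lower (0 and 3 without that library). The one called higher, the replication helicase subunit Mcm6, had a difference of 0.94 (limma adjusted p = 0.0416), lost without BDL28 replicate 1 or 2 or SHAM replicate 2, 3 or 4 (limma adjusted p = 0.07 to 0.118). The one called lower, the transcription factor E2f1, had a difference of -1.49 (limma adjusted p = 0.0412), lost without any 1 library other than BDL28 replicate 1 (limma adjusted p = 0.0589 to 0.0978). The 3 called lower without that library were E2f1, Top2a, a topoisomerase of dividing cells, and Mcm4, a further helicase subunit, the last 2 named after their values were seen. Top2a was -0.77 with it and -1.63 without it, and Mcm4 -0.24 and -0.59 (limma adjusted p = 0.437, 0.00156, 0.565 and 0.0364). Cdkn1a, the p21 inhibitor of the cell cycle, had 139.7, 628, 523 and 331 in the BDL28 libraries, against 70.2, 101, 99.9 and 67.6 in the SHAM libraries. It rose by 2.07, and by 2.51 without the library labelled replicate 1 (limma adjusted p = 0.00778 and 2.55e-05). Of 15 p53 targets, 5 were higher and 1 lower, including Pmaip1, which promotes apoptosis, and Ccng1, a cyclin, with 2.32 and 0.57 (limma adjusted p = 0.000222 and 0.00324). Targets of YAP, the Hippo pathway coactivator, gave 9 higher and 0 lower of 18 (8 and 0 without the library labelled replicate 1). Ankrd1, a classical YAP target, had 46.2, 24.8, 38.1 and 45.0 in the BDL28 libraries, against 2.75, 3.72, 1.05 and 1.19 in the SHAM libraries, and rose by 3.69 (limma adjusted p = 2e-05). The YAP partner Tead1 and the membrane repair protein Myof rose by 1.22 and 2.58 (limma adjusted p = 0.000149 and 0.000481). Of 15 immediate early genes, 2 were called higher and 0 lower, fewer than the share of all genes, and 3 and 0 without the library labelled replicate 1, where Jund (0.50, limma adjusted p = 0.0042, named after its value was seen) was added. Klf6 and Ier3 rose by 2.70 and 3.41 (limma adjusted p = 4.89e-06 and 4.49e-05). Lrtm2, a leucine-rich transmembrane protein, had 126, 319, 313 and 285 in the BDL28 libraries, against 0, 0, 1.05 and 0 in the SHAM libraries, a ratio of 871 (exact 95% Poisson interval 156 to 34451) from 1 tag in SHAM.

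The 4 BDL28 libraries varied more among themselves than the 4 SHAM libraries. The median SD of log2(value + 1) over the 10974 genes was 0.28 in BDL28 and 0.19 in SHAM, and the SD was larger in BDL28 for 67.8% of genes. Without the library labelled replicate 1, the BDL28 median was 0.22, where SHAM without 1 of its libraries gave 0.176 to 0.182. The library labelled replicate 1 was the one farthest from the BDL28 mean in 4347 genes (39.6%), against 28.7% for replicate 2, 12.4% for replicate 3 and 19.2% for replicate 4. In SHAM the corresponding shares were 23.2% to 26.8%. Among the other 3, replicates 3 and 4 were the closest pair (mean absolute log2 distance 0.316) and replicates 2 and 4 the most distant (0.430), where pairs of SHAM libraries lay at 0.297 to 0.331. Replicate 2 was farthest from sham (0.767), replicate 3 next (0.682) and replicate 4 nearest (0.627).

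The genes with the largest spread in BDL28 show which libraries differed. In several of them the library labelled replicate 1 alone was high or low. Cxcl13, a chemokine that attracts B cells, had 0.984, 189, 54.8 and 53.6 in the BDL28 libraries, against 11.01, 18.6, 13.7 and 11.9 in the SHAM libraries. It was not called with all 4 libraries (1.17, limma adjusted p = 0.513) and rose by 2.52 without the library labelled replicate 1 (limma adjusted p = 0.000859). For Cyp2b10, listed above, the difference was 0.82 with that library and -0.40 without it, and neither was called (limma adjusted p = 0.62 and 0.378). Cyp4a12b, the neighbour of Cyp4a12a, had 9.84, 216, 349 and 193 in the BDL28 libraries, against 718, 830.3, 752 and 1033 in the SHAM libraries, and its difference of -2.88 (limma adjusted p = 0.0804) became -1.75 without it (limma adjusted p = 0.000168). In other genes the remaining libraries also differed in a graded way. Cyp1a2 was called only just, at -3.26 (limma adjusted p = 0.0469), was -4.24 without the library labelled replicate 1 (limma adjusted p = 0.00203), and lost its call without any other single library (limma adjusted p = 0.0815 to 0.108; -2.52 without BDL28 replicate 2). Fabp1, the liver fatty acid binding protein, had 586, 22.1, 48.3 and 86.8 in the BDL28 libraries, against 8880.0, 8718, 8559 and 7454 in the SHAM libraries, and Bdh1, a ketone body dehydrogenase, had 291, 14.7, 48.3 and 94.3 in the BDL28 libraries, against 656, 705, 636 and 592 in the SHAM libraries. Both were lowest in replicate 2 and highest in the library labelled replicate 1. Their differences were -6.58 and -3.25 (limma adjusted p = 0.00216 and 0.0214), -7.50 and -3.95 without the library labelled replicate 1, and -5.94 and -2.54 without replicate 2, and the Bdh1 call was lost without BDL28 replicate 3 or SHAM replicate 2 (limma adjusted p = 0.0589 and 0.0502).

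Ccnd1, cyclin D1, had 945, 68.9, 115 and 464 in the BDL28 libraries, against 242, 181, 148 and 179 in the SHAM libraries. Replicates 2 and 3 lay below all SHAM libraries and the library labelled replicate 1 and replicate 4 above them; the difference of 0.40 was not called and turned to -0.25 without that library (limma adjusted p = 0.743 and 0.796). Cxcl5, a neutrophil attractant, had 410.3, 11.9, 89.1 and 70.7 in the BDL28 libraries, against 0, 1.24, 2.10 and 0 in the SHAM libraries. It rose by 5.56 (limma adjusted p = 0.00121), by 4.75 without the library labelled replicate 1 and by 6.41 without replicate 2. Orm3, an orosomucoid, had 22.6, 284, 209 and 278 in the BDL28 libraries, against 23.4, 11.2, 18.9 and 22.5 in the SHAM libraries. Its rise of 2.87 (limma adjusted p = 0.0277) was 3.72 without the library labelled replicate 1 (limma adjusted p = 1.45e-07) and was lost without any other single library (limma adjusted p = 0.0512 to 0.0693). Taf9, a subunit of the general transcription factor TFIID, was at 0 in BDL28 replicate 3 and SHAM replicate 4 and at 30.5 to 93.7 in the other libraries, and was not called (limma adjusted p = 0.827).

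Day 28 was also set against day 7 after the same surgery, in a fit of the BDL28, BDL7 and SHAM libraries. The labels give no day for SHAM, no age and no hour of collection. A changed effect of ligation therefore cannot be told apart from these. Compared with day 7, 1404 genes were higher (12.8%) and 1543 lower (14.1%) at a limma adjusted p under 0.05. Without the library labelled replicate 1 these were 2021 (18.4%) and 2094 (19.1%), and without BDL28 replicate 2 or 3 the number higher was 895 or 892. The interferon response was lower than at day 7 in 22 of 23 genes, with a median of -1.80. Isg15 had 31.5, 12.9, 18.6 and 26.8 in BDL28 libraries, against 239.8, 130.2, 56.8 and 98.5 in BDL7 libraries, a difference of -2.38 (limma adjusted p = 0.00118). Interferon-inducible GTPases were lower in 12 of 13, antigen presentation in 13 of 19 and cell cycle genes in 12 of 15; without the library labelled replicate 1 these were 11, 17 and 13, and the interferon response 22. Tgtp1, a GTPase with a near-identical copy, had 22.6, 0, 0 and 0 in BDL28 libraries, against 488, 93.6, 27.9 and 69.5 in BDL7 libraries and 0, 17.4, 22.1 and 24.9 in SHAM libraries. It was lower than at day 7 by 5.48 (limma adjusted p = 0.0182), a call lost without BDL28 replicate 2 or 3 (limma adjusted p = 0.0614 and 0.0566); it was -6.62 and -6.07 without BDL28 replicate 1 or BDL7 replicate 3 and -4.71 without BDL7 replicate 1. Its difference from SHAM of -2.22 was not called (limma adjusted p = 0.21) except without BDL28 replicate 1 or SHAM replicate 1 (-3.36 and -3.33, limma adjusted p = 0.0212 and 0.0383).

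Acute-phase genes went both ways between the days: 2 of 24 were higher at day 28 than at day 7 and 9 lower, with a median of -0.26, and without the library labelled replicate 1 these were 8 higher and 10 lower, with a median of -0.033. Saa1 had 936, 267, 789 and 716 in BDL28 libraries, against 5086, 5179.6, 4667 and 4946 in BDL7 libraries, and was lower by 3.02 (limma adjusted p = 0.000179). Lcn2 and Acta2 were lower by 1.56 and 1.69 (limma adjusted p = 0.0114 and 0.00999), whereas the difference for Col1a1 of -1.15 was not called (limma adjusted p = 0.0871) except without BDL28 replicate 1 or BDL7 replicate 2 (-1.60 and -1.45, limma adjusted p = 0.00363 and 0.0399). Of 24 matrix genes, 3 were lower than at day 7 and 18 without the library labelled replicate 1, and of 19 stellate cell and portal fibroblast markers 5 and 15. Of the major urinary proteins, 21 of 22 were lower than at day 7. Mup22, for example, had 0, 12.9, 55.7 and 37.5 in BDL28, 1039, 1128, 543 and 412 in BDL7 and 8209.8, 6445, 7342 and 7847 in SHAM libraries. Its difference from day 7 was -5.76 (limma adjusted p = 0.00548, -4.52 without the library labelled replicate 1), and Mup13, Mup10, Mup2 and Mup16 differed by -6.88, -6.60, -6.25 and -5.36. All 5 kept their call without any 1 library, but Mup22 was -6.47 without BDL28 replicate 3, Mup16 -4.41 without replicate 1, Mup2 -7.16 without replicate 3 and -5.59 without replicate 1 or 4, and Mup13 -7.80 and -7.55 without replicate 4 or 3 and -6.08 without replicate 1 or 2. Relative to day 7, Glul fell by 1.57 (limma adjusted p = 4.97e-05).

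Other genes were higher at day 28 than at day 7. Female-biased genes were higher in 9 of 16 (10 without the library labelled replicate 1) and clock genes in 7 of 20 (12 without it). Cux2 had 34.4, 68.9, 66.9 and 76.1 in BDL28 libraries, against 0.835, 1.02, 9.97 and 3.05 in BDL7 libraries. Sult2a2 was at 0 in 3 BDL7 libraries and at 0.763 in the other one. The differences from day 7 of Cux2 and Sult2a2 were 4.07 and 6.25 (limma adjusted p = 0.000529 and 4.38e-05), that of Sult2a2 being 7.02 without the library labelled replicate 1. Ciart, Per1 and Lrtm2 were higher by 3.36, 2.84 and 2.72 (limma adjusted p = 0.000577, 3.38e-05 and 0.000159). Per1 had 7.52, 8.14, 10.97 and 6.87 in BDL7 libraries, which overlapped the SHAM libraries. Cyp8b1 was higher than at day 7 by 1.16 and Slc10a1 by 0.97, whereas Cyp7b1 and Abcb11 were lower by 1.14 and 1.28 (limma adjusted p = 0.00761, 0.0242, 0.00129 and 0.00237). The Slc10a1 call was lost without BDL28 replicate 2, 3 or 4 or BDL7 replicate 1 or 2 (limma adjusted p = 0.0519 to 0.0878). No basolateral exporter was called between the 2 days (1 higher without the library labelled replicate 1). The differences of Abcc4 and Slc51b were 0.78 and 0.62 (limma adjusted p = 0.127 and 0.155); Abcc4 passed without BDL28 replicate 4 (1.05, limma adjusted p = 0.0425) and Slc51b without the library labelled replicate 1 (0.92, limma adjusted p = 0.0154).

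**Figure D5:**
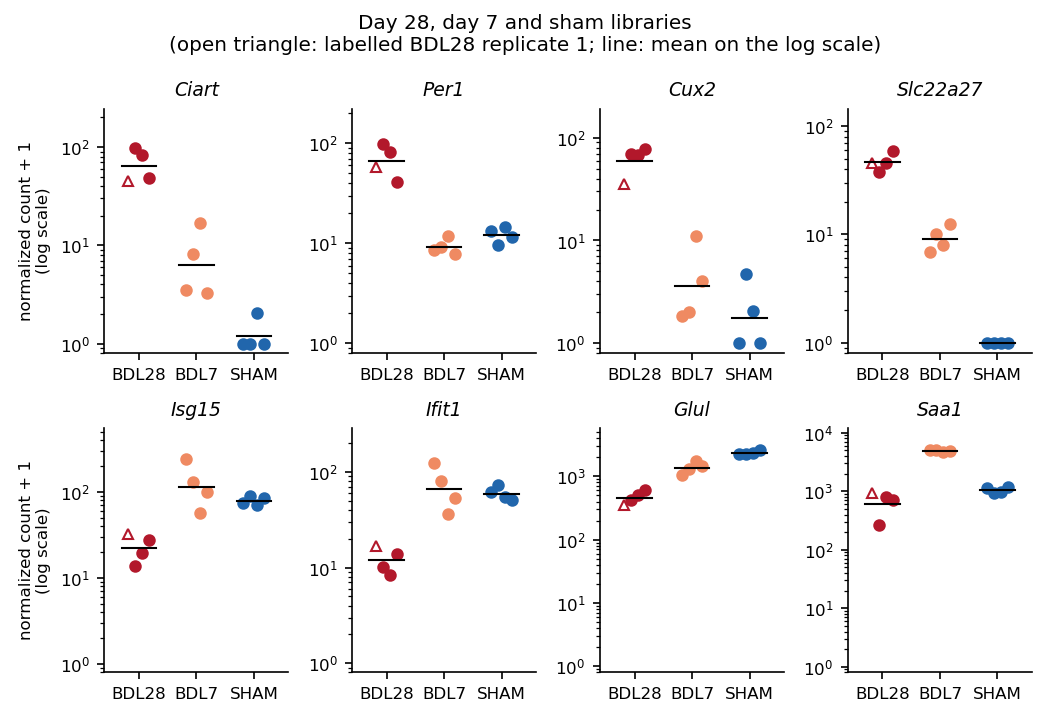
Normalized count + 1 on a log scale (y axis) in the libraries of BDL28, BDL7 and SHAM (x axis) for 8 genes; points are libraries, the open triangle is the library labelled BDL28 replicate 1 and the line is the mean on the log scale. Ciart, Per1, Cux2 and Slc22a27 are higher in all BDL28 libraries than in all BDL7 libraries, and Isg15, Ifit1, Glul and Saa1 are lower in all of them.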

How the data were processed

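Processed values were used as deposited. Per the submitters' processing notes, Trim Galore, UMI-tools 1.1.1, STAR 2.7.9a, RSEM 1.3.1 and DESeq2 were used with build GRCm39. The deposited normalized counts, a signal per gene, behave as counts that the authors divided by a size factor per library: 100% of values were whole multiples of 1 tag (rounded share, tolerance 0.001) in the BDL28 and SHAM libraries, and edgeR 4.0.16 and DESeq2 1.42.0 were run on the recovered tags as alternatives. The main test was limma 3.58.1 in R 4.3.3, with trend and robust settings, on log2(value + 1), two-sided, with Benjamini-Hochberg adjustment over 10974 genes; fold changes of low genes are understated on that scale. It was checked on simulated data that gave both groups the same spread. That check does not cover the wider spread in BDL28 or a library that stands apart. Other alternatives were scaling, pseudocount, filter, array weights, replicate blocks, other control sets and leaving out each library. The contrast with BDL7 came from a 12-library fit. Folds against a group at 0 used a floor of 3 tags over the group. Intervals have 95% confidence, pool the tags of each group and leave out the spread between libraries.

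Named genes were 40 anchors, the 12 highest and 12 lowest called genes with no overlap between groups and a mean of at least 50 in 1 of them, up to 4 members per list by adjusted p, the 12 with the largest SD in BDL28, the 6 highest and 6 lowest against BDL7, and their family mates, leaving out predicted genes. The genes and the 57 lists were chosen with earlier results of these data known. Some genes that the rule took are not reported here. The library labelled BDL28 replicate 1 was kept under its label.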

Additional observations from a re-analysis of the deposited data

Results flagged for a closer look

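In 36 of 408 groups of 4 libraries of named genes, 1 library stood far from the other 3 by the gap ratio of Dixon on the log scale. Chance gives about 1 in 20, but this is no baseline here, since some named genes were chosen for their spread or values. A group with 3 libraries at 0 and 1 above 0 also stands apart by construction. Over all genes that passed the filter, a library stood apart in 5.80% in BDL28 and 5.14% in SHAM. Of the 36 cases, the library labelled BDL28 replicate 1 made up 17 of the 18 in BDL28, and 18 lay in SHAM. In that library Slc10a1 (287), Sult1e1 (100), Cux2 (34.4), Slco1a4 (446), Orm3 (22.6), Cyp4a12b (9.84), Cyp4a12a (0) and Mup1 (0) lay below the other BDL28 libraries. Spp1 (2118), Mki67 (35.4), Top2a (69.9), Lrtm2 (126), Tgtp1 (22.6), Nid1 (551), Vcam1 (681), Myof (156) and Elovl5 (1163) lay apart from them there. Taf9 was at 0 in BDL28 replicate 3 and at 0 in SHAM replicate 4.

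Among SHAM libraries, replicate 1 stood apart for Timp1 (1.38), Clec4f (164), Tgtp1 (0), Ifi47 (288) and Usp2 (22), and replicate 2 for Fasn (1113) and Sult2a8 (1270). Replicate 3 did so for Abcc4 (17.9), Slco1a1 (1591), Rhbg (22.1), Pigr (1347), Cyp2b9 (1.05), Lrtm2 (1.05) and Ciart (1.05), the last 3 of which were at 0 in the other SHAM libraries. Replicate 4 did so for Glul (2607), C6 (772) and Lbp (300).

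Some genes differed between day 28 and day 7 by the limma contrast of BDL28 with BDL7, in which the shared SHAM group cancels. A changed effect of ligation cannot be told apart from time, age or hour of collection in this contrast. The log2 difference was 6.25 for Sult2a2, 4.07 for Cux2, 3.36 for Ciart, 2.84 for Per1 and 2.72 for Lrtm2. It was -6.88 for Mup13, -6.60 for Mup10, -6.25 for Mup2, -5.76 for Mup22, -5.36 for Mup16 and -5.48 for Tgtp1.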

How the results depend on the processing

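Against SHAM, edgeR on the recovered tags called 2299 genes higher and 2133 lower, with 4283 of its calls shared with limma in direction, and DESeq2 called 2118 and 2029. Scaling to equal totals gave 3801 higher and 1284 lower, and a minimum value of 50 left 1367 higher. Leaving out 1 library gave 1761 to 2391 higher and 1866 to 2418 lower, and 3184 genes were called in all 8 such fits. Against BDL7, array weights gave 2122 higher, and leaving out 1 library gave 892 to 2021 higher and 1043 to 2094 lower; edgeR and DESeq2 were not run for that contrast, since 1 BDL7 library, in which 1 tag is worth 0.997, was not treated as recovered tags. The median SD in BDL28 was 0.470 with no filter, and 0.224 to 0.295 without 1 library. The residual correlation of BDL28 and SHAM libraries with the same replicate number was -0.0245 to 0.0304. Pairing of BDL28 with BDL7 libraries was not checked. A block on the description numbers gave 2079 higher and 2107 lower against SHAM, and a block on the title numbers (3 numbers shared) 2066 and 2072, and 444 and 608 against BDL7. The uncalled genes Taf9, Cyp2b10, Ccnd1, Top2a and Mcm4 changed direction: Top2a with DESeq2 (0.18) or edgeR (0.17), Mcm4 with all 12 control libraries (0.25) or equal totals (0.014), Taf9 with array weights (-1.63) or without SHAM replicate 4 (-0.71), Cyp2b10 with the title block (-0.26) or without BDL28 replicate 1 (-0.40), and Ccnd1 with array weights (-0.16), the title block (-0.13) or without BDL28 replicate 1 (-0.25). List medians changed sign with quantile normalization for hepatocyte, periportal, apolipoprotein, amino acid, glucose and mitochondrially encoded genes, and with a minimum value of 50 for basolateral exporters (-0.10) and stellate cell markers (-0.12). Over all fits that left out 1 library, Taf9 lay between -0.71 and 2.24, Cyp2b10 between -0.40 and 1.40 and Ccnd1 between -0.25 and 1.00. The cause of these shifts was not tested. With 4 libraries a group and 2278745 to 2908075 tags each, genes at a few tags are limited by counting error, which the intervals and floors alone cover.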

Other observations

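Of 16 measured genes of retinoid handling, the storage and transport of vitamin A, 1 was called higher and 7 lower than in SHAM (1 and 9 without the library labelled replicate 1), with a median of -0.61. Of 13 mitochondrially encoded genes, 0 were higher and 8 lower, and their median of -0.42 turned positive with quantile normalization. Of 6 red cell and platelet genes, 1 was higher and 1 lower. Among 12 pancreas genes, fixed as markers of a neighbouring organ, 8 were at 0 in all 8 libraries. The 1 that passed the filter, the elastase Cela1, had 41.3, 34.0, 31.6 and 25.7 in the BDL28 libraries, against 133, 113, 110.5 and 128 in the SHAM libraries.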
